A study of Mus musculus with 8 samples.

Results

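Epithelia that face microbes secrete small proteins that bind, starve or lyse bacteria, and the level of 10 genes for such proteins was followed in the esophagus of mice that drank a detergent. The members were chosen by name from 49315 counted genes: the lipocalin Lcn2, the beta-defensins Defb1, Defb3, Defb4 and Defb14, the antileukoproteinase Slpi, the peptidoglycan recognition proteins Pglyrp1, Pglyrp3 and Pglyrp4, and the lectin Reg3g. The libraries were made from whole esophagus of mice labelled WT, after 14 days with 0.5% sodium dodecyl sulfate (SDS, an anionic household detergent) in the drinking water (3 libraries) or without treatment (5 control libraries). The labels used here give no strain, sex or age. Whether the libraries stand for different animals is not stated either, so a p-value here reflects library-to-library spread, part of which may be technical. RNA was selected for poly(A), and 22033866 to 29802362 reads per library were assigned to genes.

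Beta-defensins are short cationic peptides held together by disulfide bonds between conserved cysteines. They insert into bacterial membranes and also attract immune cells. Some, such as Defb1, are known as constitutive products of epithelia, while Defb3 and Defb14 are known to be induced by cytokines and microbes in mouse skin and airway. Lcn2 starves bacteria of iron by binding their siderophores, the peptidoglycan recognition proteins bind the bacterial cell wall, and Slpi both inhibits neutrophil elastase and cathepsin G and has antimicrobial activity of its own.

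Of the 10 members, 4 are beta-defensin genes on chromosome 8, and their coding sequences are shown because neighbouring and closely related copies gave different values after SDS. Positions are on mm10, as deposited, and equal the GENCODE M21 spans. Defb14 (19194357 to 19195212) and Defb4 (19198706 to 19201545) lie next to each other on the plus strand. Defb3 lies at 19293360 to 19295291 and Defb1 at 21776599 to 21795185, also on the plus strand. The coding sequences come from GENCODE M21 transcripts (GRCm38), 5′ to 3′, with the last 6 in-frame cysteine codons (TGT or TGC) in capitals.
Defb3: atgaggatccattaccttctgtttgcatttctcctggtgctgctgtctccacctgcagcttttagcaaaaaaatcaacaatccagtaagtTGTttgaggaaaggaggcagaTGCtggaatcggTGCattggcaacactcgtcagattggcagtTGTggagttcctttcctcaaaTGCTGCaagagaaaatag
Defb4: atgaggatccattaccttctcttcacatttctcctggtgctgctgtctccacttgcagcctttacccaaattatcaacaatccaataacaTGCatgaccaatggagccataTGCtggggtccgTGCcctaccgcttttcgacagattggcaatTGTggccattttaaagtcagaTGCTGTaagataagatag
Defb14: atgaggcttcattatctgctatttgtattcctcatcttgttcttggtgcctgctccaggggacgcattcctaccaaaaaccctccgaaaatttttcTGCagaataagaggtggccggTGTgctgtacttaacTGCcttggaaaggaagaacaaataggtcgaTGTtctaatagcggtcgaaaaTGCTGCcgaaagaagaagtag
Defb1: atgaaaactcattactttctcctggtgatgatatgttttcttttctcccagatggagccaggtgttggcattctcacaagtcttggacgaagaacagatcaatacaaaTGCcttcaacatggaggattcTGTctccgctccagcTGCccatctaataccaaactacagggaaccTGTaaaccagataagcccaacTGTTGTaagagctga

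The coding sequences of Defb3 and Defb4 are each 192 bases long, and aligned end to end they shared 76% of their bases. Between their annotated transcripts the longest identical run was 33 bases, so reads from that stretch could be divided between them in counting. Defb14 shared 57.3% with Defb3 and 52.6% with Defb4, with identical runs of at most 9 and 8 bases. Defb1 shared 49.5% with Defb3, 50.5% with Defb4 and 48.2% with Defb14. The 204 exon bases annotated for Defb14 are its coding sequence alone, so reads from its untranslated ends were not counted.

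The other members are protein-coding genes elsewhere. On chromosome 2, Lcn2 spans 32384633 to 32388252 and Slpi 164354070 to 164389095, both on the minus strand. Pglyrp4 (90726906 to 90741517) and Pglyrp3 (92014583 to 92031582) lie on the plus strand of chromosome 3 and Pglyrp1 (18871331 to 18890459) on the plus strand of chromosome 7. Reg3g spans 78466269 to 78468872 on the minus strand of chromosome 6. The microRNA gene Mir7678 lies within Slpi and the pseudogene Mif-ps3 within Pglyrp3, both on the same strand as their host.

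The members fell into distinct patterns. Lcn2, Pglyrp1 and Defb3, which were below 2 CPM in each control, rose in SDS, and most of that rise came from SDS libraries 1 and 2. Slpi and Defb4, the most abundant members, and Defb1 and Pglyrp3 did not pass the test. Pglyrp4 was higher in each SDS library than in any control but did not pass, Defb14 did not pass, and Reg3g was almost absent. Values are CPM, counts scaled by library size after TMM normalization. Differences were tested with edgeR's quasi-likelihood test and Benjamini-Hochberg adjustment over 17179 genes, with a threshold of 0.05.

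**Figure D1:**
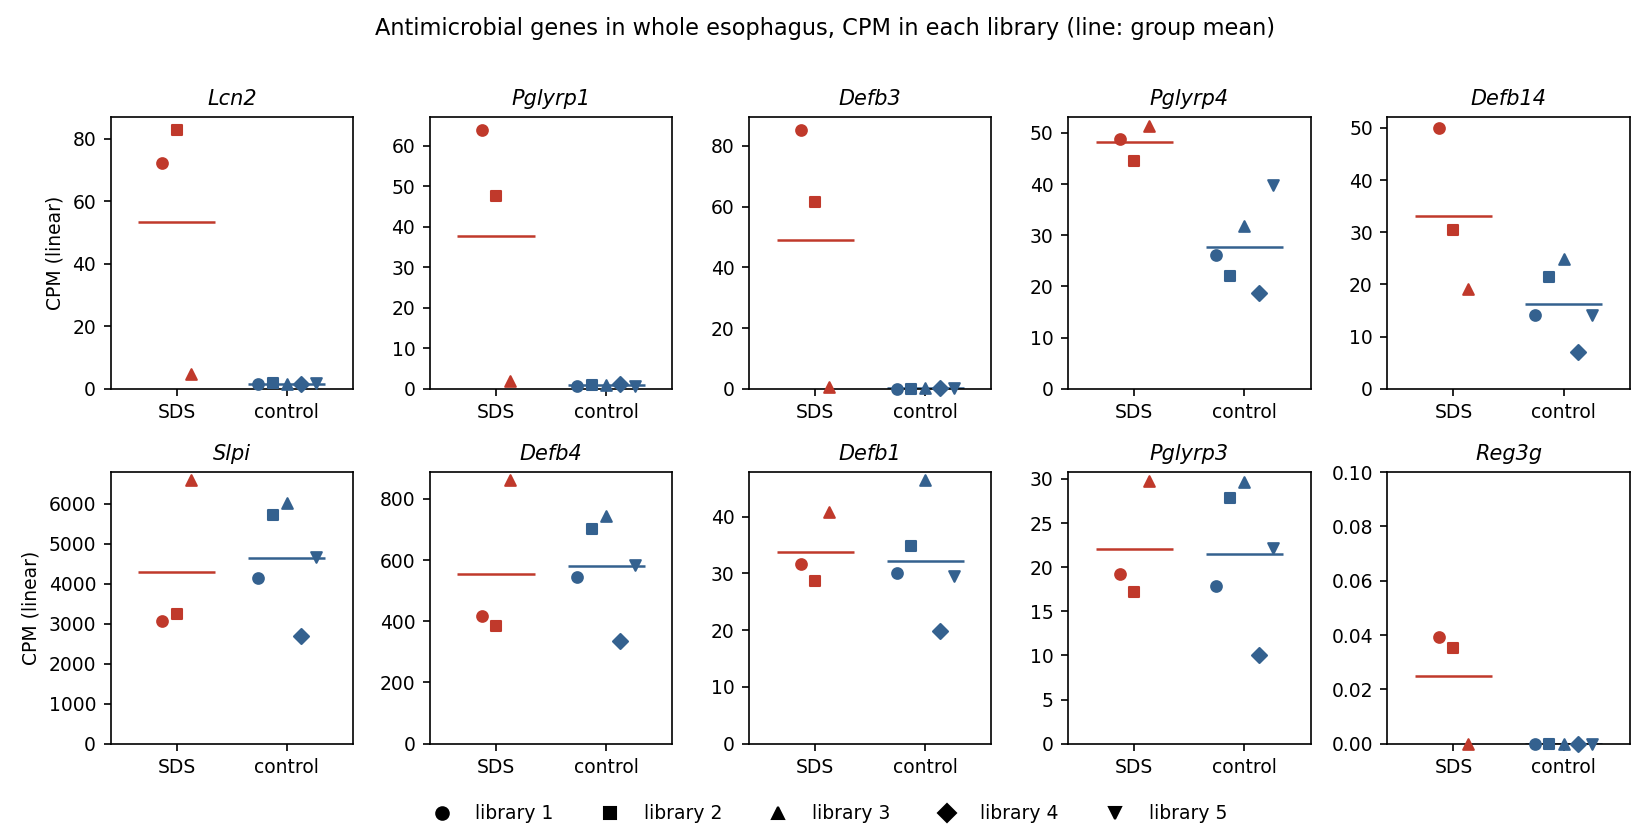
CPM (linear axis from 0) of the 10 members in each SDS library (red) and control library (blue), with a symbol per library number and a line at the group mean. SDS libraries 1 and 2 stand far above the rest for Lcn2, Pglyrp1 and Defb3, whereas SDS library 3 has the highest value of Slpi and Defb4.

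Lcn2 measured 72.3, 82.8 and 4.63 CPM in SDS libraries 1, 2 and 3, against 1.43, 1.69, 1.37, 1.62 and 1.75 CPM in controls 1 to 5. Each SDS library lay above each control, and SDS library 3, the lowest of its group, stood at 2.94 times the control mean. The siderophore-binding protein's transcript rose 33.8-fold, with a 95% interval of 10.7 to 107 (log2 5.08 ± 0.73 SE, edgeR quasi-likelihood adjusted p = 0.0303). The controls were close together, at 1.57 ± 0.166 CPM (SD, n = 5), and the SDS libraries spread widely, at 53.3 ± 42.4 CPM (SD, n = 3). Without SDS library 3 the log2 fold change was 5.63 ± 0.12 (SE, adjusted p = 1.38e-06). Without control library 4 the call held (adjusted p = 0.0490), and it was lost when any of the other 6 libraries was left out (adjusted p of 0.0602 to 0.144).

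Pglyrp1, which binds peptidoglycan and is known both from neutrophil granules and from epithelia, showed the same division of libraries. It measured 63.9, 47.6 and 1.88 CPM in SDS libraries 1, 2 and 3, against 0.751, 0.915, 0.886, 1.18 and 0.763 CPM in controls 1 to 5. Ranges did not overlap, although SDS library 3 exceeded the highest control by only 1.59-fold. Pglyrp1 rose 41.8-fold (95% interval 10.8 to 161, log2 5.38 ± 0.86 SE, edgeR quasi-likelihood adjusted p = 0.0355). Without SDS library 3 the log2 fold change was 5.95 ± 0.18 (SE, adjusted p = 7.33e-06), and without SDS library 1 it was 4.78. The call was lost when any library other than SDS library 3 was left out (adjusted p of 0.0591 to 0.156).

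Defb3, the inducible beta-defensin, had 2167, 1747 and 14 counts in SDS libraries 1, 2 and 3, and 1, 0, 9, 3 and 8 counts in controls 1 to 5. These are 85.2, 61.4 and 0.584 CPM in SDS, against 0 to 0.332 CPM in controls. SDS library 3 was thus closer to the controls than to the other SDS libraries, at 1.76 times the highest control. Defb3 rose by 8.24 ± 1.35 on the log2 scale (SE, edgeR quasi-likelihood adjusted p = 0.0374), a 302-fold change with a 95% interval of 35.9 to 2545. It passed the low-count filter only through its SDS libraries, so it had to differ to be tested. Without SDS library 3 the log2 fold change was 8.82 ± 0.49 (SE, adjusted p = 1.36e-04), without SDS library 1 it was 7.58, and the call was lost without any library other than SDS library 3 (adjusted p of 0.0654 to 0.158).

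Of the 9 members tested 3 rose, 0 fell and 6 did not pass. Among all tested genes 0.623% were called higher in SDS and 0.425% lower. Leaving aside Defb3, which entered the test only through its SDS libraries, 2 of 8 members rose. Each SDS library exceeded each control for 4 of the 9, Lcn2, Pglyrp1, Defb3 and Pglyrp4, as it did for 6.49% of all tested genes, and in 0 of the 9 did each SDS library lie below each control, as was so for 6.89% of genes. Without SDS library 3 the same 3 members were called, where 4.98% of genes were called higher and 1.94% lower.

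**Figure D2:**
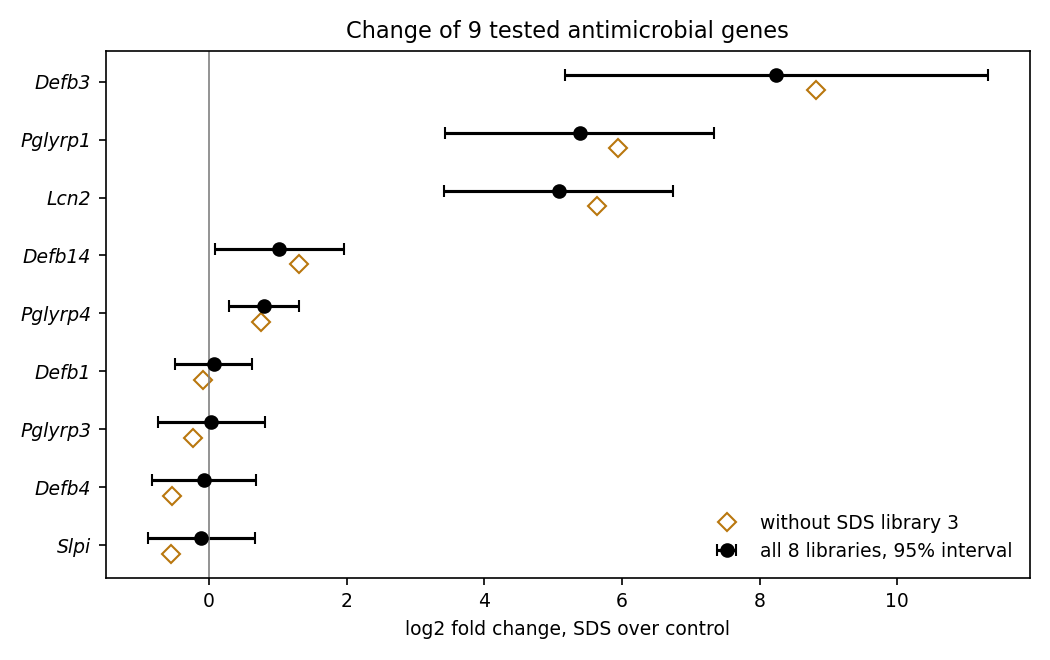
Log2 fold change of SDS over control for the 9 tested members: black points with 95% intervals for all 8 libraries, open diamonds for the fit without SDS library 3. Lcn2, Pglyrp1 and Defb3 lie between 5.08 and 8.24, and the intervals of Slpi, Defb4, Defb1 and Pglyrp3 include 0.

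Pglyrp4, a secreted peptidoglycan recognition protein of skin and upper digestive epithelium, differed from these in its spread. It measured 48.8, 44.6 and 51.4 CPM in SDS libraries 1, 2 and 3, against 26.04, 22.1, 31.8, 18.7 and 39.7 CPM in controls 1 to 5. SDS library 3 was the highest of all, and the group means were 48.3 ± 3.45 CPM in SDS (SD, n = 3) and 27.7 ± 8.32 CPM in controls (SD, n = 5). The log2 fold change of 0.80 ± 0.22 (SE), 1.74-fold with a 95% interval of 1.23 to 2.48, did not pass (edgeR quasi-likelihood adjusted p = 0.111). DESeq2 called it (adjusted p = 0.0208), in a fit that called 5% of all genes higher. Pglyrp3, its relative on the same chromosome, measured 19.2, 17.1 and 29.8 CPM in SDS and 17.9, 27.8, 29.7, 10.04 and 22.2 CPM in controls 1 to 5 (log2 0.04 ± 0.34 SE, 95% interval -0.74 to 0.81).

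Defb14, the mouse counterpart of human beta-defensin 3, measured 49.9, 30.5 and 19.1 CPM in SDS libraries 1, 2 and 3, against 14.1, 21.5, 25.0, 7.06 and 14.1 CPM in controls 1 to 5. SDS libraries 1 and 2 lay above each control and SDS library 3 lay within the control range. The log2 fold change was 1.02 ± 0.41 (SE, 95% interval 0.09 to 1.96) and did not pass (edgeR quasi-likelihood adjusted p = 0.229, and 0.110 without SDS library 3). Without SDS library 1 the log2 fold change was 0.60. Its neighbour Defb4 had a log2 fold change of -0.07 ± 0.33 (SE, 95% interval -0.83 to 0.69).

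Slpi was the most abundant member, with 3075, 3236 and 6592 CPM in SDS libraries 1, 2 and 3, against 4147, 5704, 6003, 2703 and 4677 CPM in controls 1 to 5. SDS libraries 1 and 2 lay in the lower part of the control range and SDS library 3 above it. Defb4 also had its highest value in SDS library 3, with 418, 383 and 862 CPM in SDS and 546, 703, 743, 335 and 583 CPM in controls 1 to 5. Neither passed: the log2 fold change of Slpi was -0.11 ± 0.34 (SE, 95% interval -0.89 to 0.67), so a difference within these limits remains possible. Without SDS library 3 the values were -0.55 for Slpi and -0.53 for Defb4, with adjusted p of 0.353 and 0.340. Defb1, the constitutive beta-defensin, measured 31.6, 28.6 and 40.9 CPM in SDS and 30.04, 34.9, 46.5, 19.8 and 29.5 CPM in controls (log2 0.07 ± 0.25 SE, 95% interval -0.49 to 0.63).

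Reg3g, a lectin that binds the cell wall of Gram-positive bacteria and is abundant in the intestine, had 1, 1 and 0 counts in SDS and 0 in each control. It was too low for the filter and, without one, did not pass (edgeR quasi-likelihood adjusted p = 0.491). At these depths 3 counts correspond to 0.101 to 0.136 CPM, a floor that covers counting error only, so a level under it was not detectable. Its relatives Reg3a, Reg3b and Reg3d had 0 counts in each of the 8 libraries.

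Levels of different genes were compared per kilobase of annotated exon. Annotated lengths ran from 204 bases for Defb14 to 2623 for Lcn2, and the order below Slpi and Defb4 depended on them. By CPM alone the order of means in SDS was Slpi, Defb4, Lcn2, Defb3, Pglyrp4, Pglyrp1, Defb1, Defb14, Pglyrp3 and Reg3g. In controls it was Slpi, Defb4, Defb1, Pglyrp4, Pglyrp3, Defb14, Lcn2, Pglyrp1, Defb3 and Reg3g. Per kilobase, the SDS order was Slpi, Defb4, Defb3, Defb14, Defb1, Pglyrp1, Pglyrp4, Lcn2, Pglyrp3 and Reg3g. The control order per kilobase was Slpi, Defb4, Defb14, Defb1, Pglyrp3, Pglyrp4, Lcn2, Defb3, Pglyrp1 and Reg3g. Slpi averaged 3645 CPM per kilobase in SDS and 3938 in controls, and Defb4 1221 and 1282. The third place of Defb3 in SDS came from SDS libraries 1 and 2: in SDS library 3 Defb3, Lcn2 and Pglyrp1, at 2.12, 1.77 and 1.02 CPM per kilobase, lay below Defb14, Defb1, Pglyrp3 and Pglyrp4, as in controls. In SDS the ranges of Defb3 and Defb14 overlapped, as did those of neighbours from Defb1 to Pglyrp3. In controls the ranges of neighbours overlapped from Defb14 to Pglyrp4 and from Lcn2 to Pglyrp1, and a gap separated Pglyrp4, at 7.91 to 16.8 CPM per kilobase, from Lcn2, at 0.521 to 0.669.

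**Figure D3:**
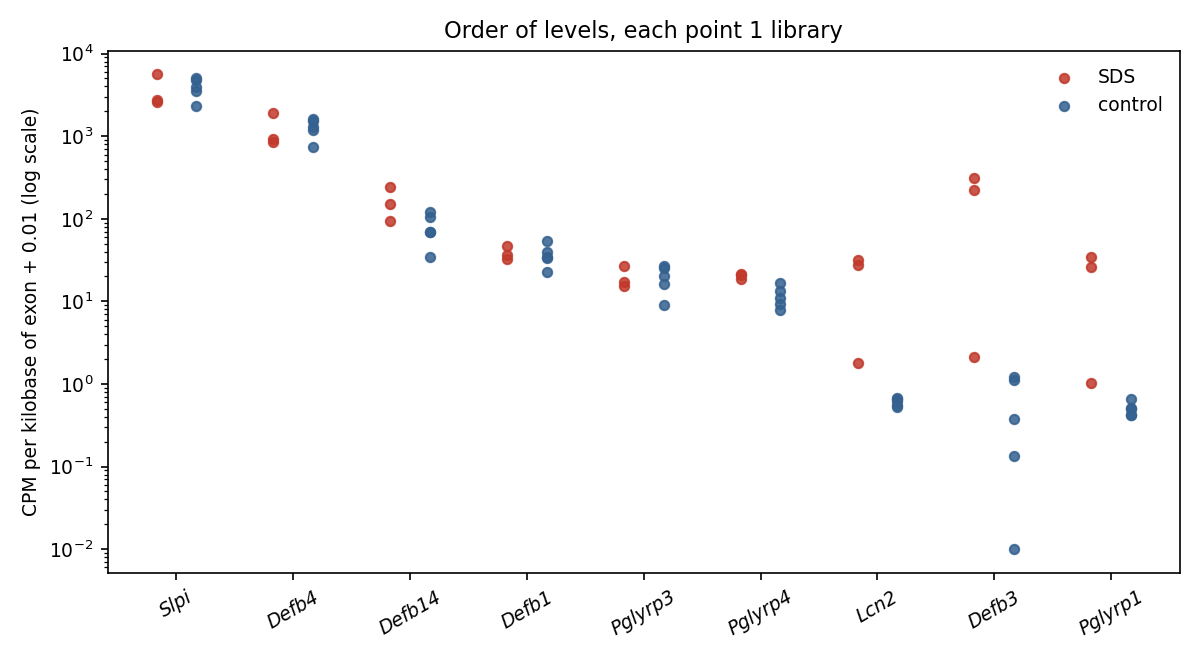
CPM per kilobase of exon plus 0.01, on a log axis, for 9 members in order of the control mean, with 1 point per library (SDS red, left of control blue). Slpi and Defb4 lie highest in both groups, and Lcn2, Defb3 and Pglyrp1 span the widest range within SDS, where SDS library 3 is the lowest point.

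Summed over the 10 members, CPM per kilobase came to 4217, 4084 and 7678 in SDS libraries 1, 2 and 3 and to 3105 to 6942 in controls. Slpi and Defb4 made up 83.6%, 87.8% and 97.5% of that sum in SDS, against 96.9% to 97.6% in controls. Lcn2, Pglyrp1 and Defb3 together held 8.82%, 6.87% and 0.0640% in SDS, against 0.0174% to 0.0525% in controls. Among the 4 beta-defensins the share of Defb3 was 20.5%, 17.9% and 0.104% in SDS and at most 0.0799% in controls. In SDS library 3 the share of Slpi and Defb4, which dominate the sum, thus lay within the control range. Its share of Lcn2, Pglyrp1 and Defb3, and its share of Defb3 among beta-defensins, lay slightly above each control.

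Whole esophagus holds epithelium, muscle and fat in varying parts, and in such bulk samples fewer cells of a type and less RNA per cell cannot be told apart. Each of 12 squamous epithelium markers was detected in each library, and their summed level was 96360, 99510 and 162300 CPM in SDS libraries 1, 2 and 3, against 45920 to 146300 CPM in controls. Of these markers Krt14 was called higher in SDS (edgeR quasi-likelihood adjusted p = 0.0493), at 5036, 4008 and 1094 CPM in SDS and 325 to 822 CPM in controls. The 11 skeletal muscle markers summed to 12720 to 23360 CPM in SDS and 27110 to 37020 CPM in controls, without overlap. Singly, 0 of the 11 were called. Each SDS library lay below each control for 6 of them, as it did for 6.89% of all tested genes. The 8 adipocyte markers summed to 186 to 1667 CPM in SDS and 183 to 5532 CPM in controls.

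Set against the geometric mean of the 12 epithelial marker counts, Slpi, Defb4 and Defb1 varied little among controls, with a SD of 0.0643, 0.0774 and 0.0781 around 1. Slpi then stood at 0.585, 0.705 and 0.920 in SDS libraries 1, 2 and 3 relative to a control mean of 1, against 0.923 to 1.08 in controls. Defb4 stood at 0.633, 0.665 and 0.958 in SDS, against 0.912 to 1.10 in controls. Defb1 stood at 0.869, 0.901 and 0.824 in SDS, against 0.906 to 1.09 in controls. On this scale each SDS library lay below each control for Slpi and Defb1. The margin was narrow for Slpi in SDS library 3 and for Defb1 in SDS library 2. For Defb4, SDS libraries 1 and 2 lay below each control. Krt14, itself called higher in SDS, is among the 12 markers. By CPM, 3 of the 12, Krt14, Dsg3 and Krt5, were higher in each SDS library than in any control. For 0 of the 12 did each SDS library lie below each control. Ratios without these 3 markers, and the share of all genes with a separation on the ratio scale, were not computed. With libraries scaled to the 12 markers none of these 3 members passed (edgeR quasi-likelihood adjusted p = 0.372 for Slpi, 0.419 for Defb4 and 0.591 for Defb1). Their log2 fold changes were then -0.44, -0.41 and -0.21, beside a median of -0.35 for all tested genes. Pglyrp4 stood at 1.52, 1.585 and 1.17 in SDS and 0.682 to 1.38 in controls, so its groups overlapped. Lcn2, at 37.7, 49.4 and 1.77 in SDS and 0.596 to 1.52 in controls, did not overlap, whereas Pglyrp1 did, at 56.8, 48.5 and 1.23 in SDS and 0.660 to 1.89 in controls.

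**Figure D4:**
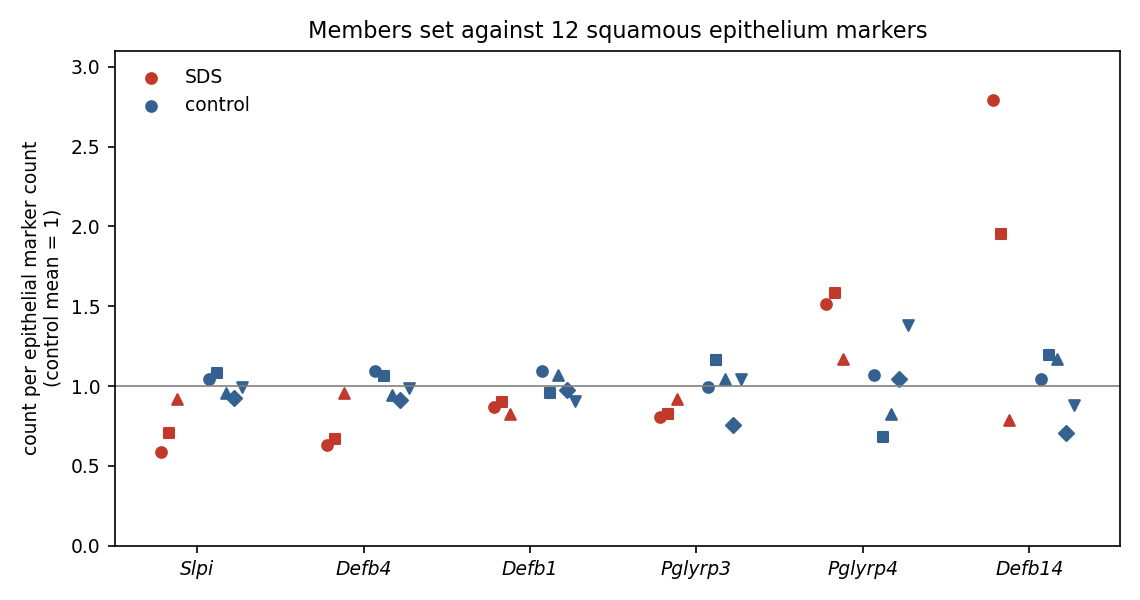
Counts of 6 members divided by the geometric mean count of 12 squamous epithelium markers, with the control mean set to 1 (linear axis from 0). Slpi and Defb4 lie at 0.585 to 0.705 in SDS libraries 1 and 2 (circles and squares, red) and near 1 in the controls (blue), and Defb14 is highest in SDS library 1, at 2.79.

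Lcn2 and Pglyrp1 are also products of neutrophils, so markers of those cells stand beside them. The 13 neutrophil markers summed to 6226, 5904 and 214 CPM in SDS libraries 1, 2 and 3, against 50.1 to 62.2 CPM in controls. Most of that sum was S100a8 and S100a9, the calprotectin subunits, which keratinocytes also express. The list's other members did not move alike. The receptor Csf3r measured 22.8, 45.4 and 0.542 CPM in SDS and 0.337 to 0.811 CPM in controls, and the granule gene Ltf measured 92.2, 89.7 and 0.542 CPM in SDS and 0.406 to 15.3 CPM in controls. Both were highest in SDS libraries 1 and 2, as Lcn2 and Pglyrp1 were. At low counts, Retnlg had 26, 17 and 2 counts in SDS and 0 to 5 in controls, Stfa2l1 had 13, 21 and 1 counts in SDS and 0 or 1 in controls, and Mmp8 had 9, 9 and 4 counts in SDS and 0 to 6 in controls. The receptor Cxcr2 measured 17.3, 16.7 and 13.9 CPM in SDS and 2.30 to 15.5 CPM in controls. The surface marker Ly6g had 1, 3 and 0 counts in SDS and 0 in each control. Mpo, Elane and Ngp, which are transcribed mainly in neutrophil precursors, had at most 5 counts in any library. Camp measured 0.707, 0.246 and 0.667 CPM in SDS, against 0.777 to 1.81 CPM in controls. In SDS library 3, S100a8 and S100a9 lay above the controls, as did Lcn2 and Pglyrp1, and Csf3r and Ltf lay within the control range. The part of neutrophils in the levels of Lcn2 and Pglyrp1 was not tested.

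Of 28 other antimicrobial genes 16 were tested, of which 2 rose, 0 fell and 14 did not pass. Among all tested genes 0.623% were called higher. The list's median log2 fold change was 0.32, beside -0.0047 for all tested genes. The 2 that rose were S100a8 and S100a9, which chelate zinc and manganese. S100a8 measured 2533, 2304 and 24.7 CPM in SDS and 0.770 to 8.75 CPM in controls, so SDS library 3 was again far below the other SDS libraries and above each control. Log2 fold changes were 8.28 for S100a8 and 6.15 for S100a9 (edgeR quasi-likelihood adjusted p = 0.0424 and 0.0240). The call of S100a8 was lost without any library other than SDS library 3, and that of S100a9 without any library other than SDS library 3 or control library 4. Of 39 other beta-defensin genes by symbol, only Defb6 passed the filter. It measured 3.58, 3.09 and 6.30 CPM in SDS and 2.94 to 5.10 CPM in controls (log2 0.04 ± 0.29 SE).

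Among 27 genes for cytokines, microbial sensors and their receptors that are known to induce these proteins, 21 were tested. Of these 1 rose, 0 fell and 20 did not pass, beside 0.623% of all tested genes called higher. Their median log2 fold change was 0.40, beside -0.0047 for all tested genes. Nod2, the intracellular sensor of a peptidoglycan fragment, rose by 1.58 ± 0.17 on the log2 scale (SE, edgeR quasi-likelihood adjusted p = 0.0124). It measured 12.9, 18.8 and 15.1 CPM in SDS libraries 1, 2 and 3, against 4.36 to 6.06 CPM in controls, so SDS library 3 resembled its group here. The call of Nod2 was lost without control library 1 or 2 or SDS library 2 (adjusted p of 0.0553 to 0.0807). The cytokine Il17a, which induces Lcn2 and beta-defensins in epithelial cells, had 61, 55 and 0 counts in SDS, against 0, 0, 0, 1 and 0 counts in controls 1 to 5, and was too low for the filter. Without a filter Il17a did not pass (edgeR quasi-likelihood adjusted p = 0.0589). The related cytokine Il17f, also too low for the filter, had 57, 43 and 1 counts in SDS and 0 or 1 in each control. Without a filter Il17f passed (edgeR quasi-likelihood adjusted p = 0.0392). That fit called 159 of 31365 genes higher and 0 members, so its calls do not stand beside the main ones.

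The receptor side was expressed in both groups. Il17ra, the shared subunit of interleukin 17 receptors, measured 20.3, 30.5 and 20.1 CPM in SDS and 13.8 to 19.0 CPM in controls, without overlap, and did not pass (log2 0.60 ± 0.18 SE, adjusted p = 0.131, edgeR quasi-likelihood). The epithelial cytokine Il17c had 11, 6 and 0 counts in SDS and 2 or 3 in each control. Il22 had 5, 2 and 1 counts in SDS and at most 1 in a control, and its receptor subunit Il22ra1 had a log2 fold change of 0.43 ± 0.27 (SE). The epithelial cytokine Il36g, listed as Il1f9, measured 143, 144 and 206 CPM in SDS and 55.7 to 180 CPM in controls (log2 0.46 ± 0.35 SE). Neither Il22ra1 nor Il36g passed.

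In the list of signal relays and transcription factors 1 of 22 tested genes rose, 0 fell and 21 did not pass. Among all tested genes 0.623% were called higher. The list's median log2 fold change was 0.24, beside -0.0047 for all tested genes. Nfkbiz, a nuclear cofactor of NF-kappaB that takes part in the induction of Lcn2 and of beta-defensins by interleukin 17, measured 108, 115 and 91.1 CPM in SDS libraries 1, 2 and 3. Its controls measured 30.3, 42.3, 56.9, 25.99 and 48.2 CPM. All 3 SDS libraries lay above each control and were alike in level. Lcn2 and Defb3 also lay above each control in these libraries, but their levels differed widely among them. Nfkbiz rose by 1.36 ± 0.24 on the log2 scale (SE, edgeR quasi-likelihood adjusted p = 0.0470), a call lost without any library other than SDS library 3 or control library 4 (adjusted p of 0.0606 to 0.193).

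Receptors and targets of the members gave no call by edgeR among 6 tested of 11. Their median log2 fold change was 0.06, beside -0.0047 for all tested genes. The 3 with the smallest p were Ccr2 with a log2 fold change of 1.505, Mmp9, whose protease binds lipocalin 2, with 1.70, and Extl3, a receptor for Reg3 lectins, with -0.19 (edgeR quasi-likelihood adjusted p of 0.252, 0.421 and 0.731). Slc22a17, a receptor for lipocalin 2, measured 15.2, 17.01 and 8.51 CPM in SDS and 8.68 to 14.5 CPM in controls. Ccr6, the receptor that beta-defensins engage on dendritic cells and T cells, had 25, 21 and 2 counts in SDS and 0 to 2 in each control, and Trem1, a receptor for Pglyrp1 on myeloid cells, had 40, 68 and 3 counts in SDS and 0 or 1 in each control. Both were too low for the filter. Without a filter Trem1 passed (edgeR quasi-likelihood adjusted p = 0.0279) and Ccr6 did not (0.0594). The same fit called 159 of 31365 genes higher and 0 members, Pglyrp1 included. Slpi inhibits Elane, whose counts are given above.

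**Figure D5:**
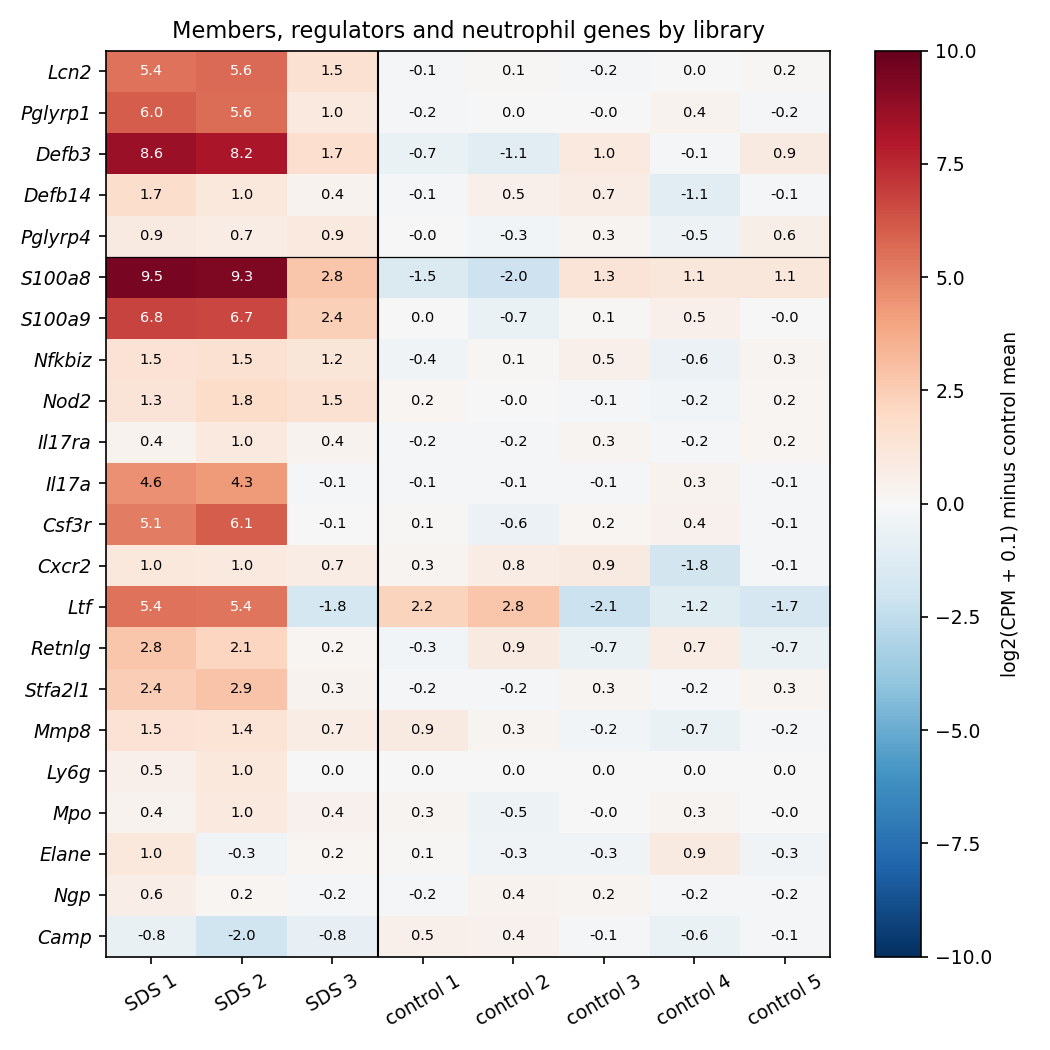
Log2(CPM + 0.1) minus the control mean in each library, for 5 members (above the line) and for calprotectin, regulators and the other 11 neutrophil markers. Lcn2, Pglyrp1, Defb3, S100a8 and S100a9 are high in SDS libraries 1 and 2 and lower in SDS library 3, while Nfkbiz and Nod2 are of similar size in the 3 SDS libraries. Csf3r and Ltf are high in SDS libraries 1 and 2, and Camp is below the control mean in all 3.

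Likeness of pattern was measured by Pearson's r of log2 CPM over the 8 libraries, among 14820 named genes outside the list. The libraries differed in tissue make-up, as the marker sums above show, and its part in these r values was not tested. The genes most like Lcn2 were Rnf149 (0.9925), Il7r (0.9922) and Krt6b (0.9911). Rnf149 measured 46.2, 47.5 and 26.9 CPM in SDS and 19.5 to 23.1 CPM in controls. Those most like Slpi were Scrn2 (0.9975), Cysrt1 (0.9960) and Pir (0.9942). Cysrt1 measured 192, 189 and 398 CPM in SDS and 163 to 387 CPM in controls, with SDS library 3 highest, as for Slpi.

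RefSeq promoter windows (GRCm38.p6) were held for 5 of the 10 members, and none for Defb1, Defb4, Defb14, Pglyrp3 and Pglyrp4. The 250 bases before the RefSeq start are shown, on each gene's own strand, for the 3 members that rose and for Slpi, which did not pass. Capitals mark motif matches on either strand. The windows are chr2:32387740-32387989 (minus) for Lcn2, chr7:18884440-18884689 (plus) for Pglyrp1, chr8:19293111-19293360 (plus) for Defb3 and chr2:164356508-164356757 (minus) for Slpi. Those of Lcn2, Pglyrp1 and Slpi lie inside the spans of the counted genes.
Lcn2: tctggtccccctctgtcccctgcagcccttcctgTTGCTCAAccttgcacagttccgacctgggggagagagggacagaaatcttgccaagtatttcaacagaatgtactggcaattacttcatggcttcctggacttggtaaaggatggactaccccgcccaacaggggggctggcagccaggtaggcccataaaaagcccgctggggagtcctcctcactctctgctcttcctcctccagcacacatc
Pglyrp1: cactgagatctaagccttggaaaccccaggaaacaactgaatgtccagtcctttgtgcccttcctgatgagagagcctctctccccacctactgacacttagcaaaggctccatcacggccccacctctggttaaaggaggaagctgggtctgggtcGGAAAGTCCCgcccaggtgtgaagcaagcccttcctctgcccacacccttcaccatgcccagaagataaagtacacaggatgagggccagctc
Defb3: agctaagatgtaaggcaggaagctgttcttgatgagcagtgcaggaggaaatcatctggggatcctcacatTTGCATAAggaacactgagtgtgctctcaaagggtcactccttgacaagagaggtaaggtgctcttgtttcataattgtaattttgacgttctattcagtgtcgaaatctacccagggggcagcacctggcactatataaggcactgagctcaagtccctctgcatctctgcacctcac
Slpi: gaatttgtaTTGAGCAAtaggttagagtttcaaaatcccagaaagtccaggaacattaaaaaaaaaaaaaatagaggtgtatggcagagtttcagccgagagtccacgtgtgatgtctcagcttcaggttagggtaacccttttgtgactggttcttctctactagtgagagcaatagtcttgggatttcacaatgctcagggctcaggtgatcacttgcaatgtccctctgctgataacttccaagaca

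The C/EBP core searched was TTGCNNAA, which 9.55% of 27025 promoters hold in the same window. It was found in Lcn2 (216 to 209 bases before the start), Defb3 (179 to 172) and Slpi (241 to 234). The NF-kappaB consensus, held by 7.01% of promoters, was found in Pglyrp1 (93 to 84 bases before the start) and in none of the other 3. The STAT motif TTCNNNGAA, the AP-1 motif TGANTCA and the TATA box TATAAA, held by 7.18%, 6.87% and 13% of promoters, were found in none of the 4. Only these letter patterns were searched, so other forms of each motif were not counted. No motif was common to the 3 members that rose, and the C/EBP core occurred also in Slpi.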

How the data were processed

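Whole mouse esophagus RNA was analysed in 8 libraries, grouped by the treatment label (3 SDS, 5 control). The authors deposited raw counts per gene with exon lengths. For these counts the submitters' processing notes name mm10, STAR 2.6.1c, Subread, FastQC and bcl2fastq. Annotation release, strand setting and the handling of multiply matching reads: not given in the sources used here. Per the labels' protocols, poly(A) RNA went into NEBNext Ultra II libraries. That text names cell pellets, the treatment text whole esophagus.

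Of 49315 identifiers 48970 had a symbol. Low genes were removed by edgeR 4.0.16 in R 4.3.3 (filterByExpr with count minimum 10 and total minimum 15, about 0.379 CPM in at least 3 libraries), and libraries were scaled by TMM. A robust quasi-likelihood fit compared the groups, two-sided. The standard error is the log2 fold change over the square root of F, and intervals are 95%. For correlations, log2 CPM had prior count 2. The procedure was tested on simulated data, where edgeR recovered 38% of 2-fold changes. Alternatives used DESeq2 1.42.0, limma 3.58.1, other scalings and filters, a replicate block, and leaving out each library. Motifs and identities came from Python 3.11.15 and Biopython 1.88. Within groups, library pairs differed beyond sampling noise (chi-square per degree of freedom at least 24.1), so none was counted as a copy.

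Members and lists were chosen with earlier results of these data known. Named were all members, up to 4 called genes of each further list by p (else the 3 smallest), known ligands, receptors and targets, and the 3 genes most like Lcn2 and Slpi. Cell type markers, Reg3 relatives, Il17f and the genes under other observations lie outside that rule and were picked with their values in view. Il36a and Il36g were matched through RefSeq synonyms.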

Additional observations from a re-analysis of the deposited data

Results flagged for a closer look

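Among 24 genes examined, 2 had a control library that stood apart from the other controls by Dixon's criterion, which chance meets in about 1 of 20 groups. Slc22a17, a lipocalin 2 receptor, measured 8.68 CPM in control library 3, the lowest of the 5 controls. Elane, the neutrophil elastase that Slpi inhibits, measured 0.135 CPM in control library 4, from 4 counts.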

How the results depend on the processing

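The 3 member calls held with relative log expression or upper quartile scaling and with DESeq2, which called 1610 genes, against 180. No member was called (0) without a low-count filter, by limma-voom, with libraries scaled to the epithelial markers (chosen after seeing the data; 4 genes called) or with a replicate block. With a minimum of 1 CPM in 3 libraries, Lcn2 and Pglyrp1 were called and Defb3 was not tested. Leaving out 1 library gave 4 to 1222 called genes and 0 to 3 called members: 3 without SDS library 3, 1 without control library 4 and 0 without any other. Across alternatives the log2 fold change was 4.29 to 5.63 for Lcn2, 4.37 to 5.95 for Pglyrp1 and 7.17 to 8.82 for Defb3, with adjusted p of at most 0.154, 0.215 and 0.318. The cause of the lost calls was not tested.

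The labels do not state whether replicate numbers pair the libraries. Deviations of same-numbered libraries correlated at 0.311, -0.00564 and 0.307. SDS libraries 1 and 2 correlated best with control library 4 (0.509 and 0.023), and SDS library 3 with control library 3 (0.307). These values cannot decide on pairing, because tissue make-up also varied among the libraries. The replicate block called 0 genes, with 3173 at an unadjusted p under 0.05 by edgeR. It gave log2 fold changes of -0.13 for Defb1 and -0.19 for Pglyrp3. With epithelial scaling these were -0.21 and -0.23, relative to a median of -0.35 for all genes. Leaving out 1 library gave -0.087 to 0.24 for Defb1, -0.53 to 0.14 for Defb4, -0.55 to 0.081 for Slpi and -0.24 to 0.19 for Pglyrp3, none past the threshold.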

Other observations

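Other secreted antimicrobial proteins, chosen here after their values were seen, divided the SDS libraries in more than one way. Lactoperoxidase, Lpo, had 388, 352 and 7 counts in SDS libraries 1, 2 and 3, against 1 to 5 counts in a control. For the iron-binding lactotransferrin, Ltf, whose levels stand with the neutrophil markers, edgeR's quasi-likelihood adjusted p was 0.237. Wfdc12, a protein of the same domain family as Slpi, measured 121, 125 and 68.8 CPM in SDS, against 35.6 to 65.1 CPM in controls (log2 1.02, edgeR quasi-likelihood adjusted p = 0.0769). Lysozyme 2, Lyz2, which macrophages also produce, measured 391.9, 811 and 259 CPM in SDS, against 142 to 227 CPM in controls (adjusted p = 0.0870). The 9 macrophage markers summed to 860, 1687 and 464 CPM in SDS and 342 to 548 CPM in controls, and their part in the level of Lyz2 was not tested.

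The epithelial cytokine Il36a, listed as Il1f6, was alike in all 3 SDS libraries, at 340, 280 and 272 CPM, against 63.4 to 170 CPM in controls. It did not pass (log2 1.33 ± 0.30 SE, edgeR quasi-likelihood adjusted p = 0.0719). Zc3h12a, an RNase that limits interleukin 17 signalling, measured 115, 120 and 69.2 CPM in SDS and 20.3 to 63.0 CPM in controls (log2 1.49, adjusted p = 0.0749).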
